A study of Mus musculus with 8 samples.

Results

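Hypoxia signalling genes were examined in laser-dissected neural tube of mouse embryos (strain FVB, gestation day 8.5). The set consisted of 10 genes chosen by name: the transcription factor subunits Hif1a, Epas1 and Arnt, the oxygen-sensing hydroxylases Egln1 and Egln3, the ubiquitin ligase component Vhl, and the target genes Vegfa, Bnip3, Ndrg1 and Adm. All 10 were among the 26608 genes listed for each library, and all 10 were among the 11779 genes that passed the filter on low counts. The 8 libraries formed 4 groups of 2: closed neural tube of diabetic dams (libraries 15 and 16), open neural tube of diabetic dams (13 and 14), closed neural tube of normal dams (11 and 12) and open neural tube of normal dams (09 and 10). Open tissue was cut directly anterior to closure site 1 and closed tissue directly posterior to it, so the regions also differ in axial level. Total RNA was counted as short tags near the 3′ end of transcripts (SAGE). How diabetes was produced in the dams, and the number of embryos or litters behind each library, are not given in the labels, nor is it said if a single embryo supplied both regions. The p-values therefore measure only the spread between these libraries, which may be technical.

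The hypoxia-inducible factors (HIFs) are dimers of an oxygen-regulated alpha subunit, Hif1a or Epas1 (also called HIF-2 alpha), with the constitutive partner Arnt. When oxygen is plentiful, the Egln prolyl hydroxylases modify the alpha subunit, and the Vhl ubiquitin ligase then marks it for degradation. When oxygen is scarce, the dimer accumulates and binds the core motif ACGTG or GCGTG near genes of glycolysis, angiogenesis and mitophagy. Much of this control acts on the alpha protein, which tag counts do not measure. The mouse embryo at neural tube closure has only begun to be supplied by a circulation, and HIF activity is a normal part of this stage.

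The counted unit of such a library is the sequence that follows the last CATG site of a transcript. The tags below were read from the longest coding transcript of each gene in GENCODE M21 and show what a count stands for in the genes on which the results turn. Capitals mark the CATG site.
Hif1a: CATGgcacattaatatgcagatacat
Epas1: CATGaccattactgcattgtcaaatt
Egln1: CATGttaggactcttgtttaaaacca
Egln3: CATGctcaataaactcagtctcctct
Bnip3: CATGctgtatatatcctgttgtattt
The tag of each of these genes, 26 bases long as cut here, occurred in the transcripts of 0 other annotated genes. Hif1a and Bnip3 had 2 distinct predicted tags among their coding transcripts, while Epas1, Egln1 and Egln3 had 1. Among the genes not shown, Ndrg1 had 5, Arnt 4 and Vegfa 3, while Vhl and Adm had 1. Each transcript gives 1 tag, so these values do not scale with transcript length and levels are given as counts per 1000000 of the library total (CPM).

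Library totals ran from 5041586 to 16655583 counts, so that 3 counts corresponded to between 0.180 and 0.595 CPM. Diabetic open library 13 stood apart: the neural factor Sox2 was at 30.9 CPM in it and at 287 to 550 CPM in the others, and the mesoderm and endoderm factor Gata4 was at 87.7 CPM there, with no other library above 4.36 CPM. The 14 neural progenitor genes fixed as markers of the labelled tissue summed to between 4454 and 5739 CPM with diabetic dams. With normal dams they summed to between 4358 and 5682 CPM, and 1 of them, Nkx6-1, was at 0 throughout. Sox11 and Lin28a, at means of 2193 and 2008 CPM, made up most of each sum, which thus says little about the others. Sox1 ranged from 15.3 to 109 CPM over the libraries, Pax3 from 7.75 to 136 CPM and Pax6 from 4.92 to 62.9 CPM. Xist reached 301 CPM in library 10 (normal open) and 297 CPM in library 12 (normal closed), with no other library above 4.27 CPM. Ddx3y was at 0.882 and 0.444 CPM in libraries 10 and 12 and between 188 and 274 CPM in the others. Both of these libraries were of normal dams, so the dams were not balanced for Xist and Ddx3y. The part of this imbalance in the comparisons between dams was not tested. A listed 0 is not proof of absence. Gapdh and Eno1, enzymes that every cell uses, were at 0 in all 8 libraries, and their predicted tags occurred in the transcripts of 6 and 1 other annotated genes.

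None of the 10 genes passed the test between dams or between regions. Transcripts of the pathway were measured at very different depths. Bnip3, which tethers mitochondria to autophagosomes, had the highest level, at 588 ± 292 CPM (SD, n = 8), followed by Egln1 at 195 ± 62.1 CPM, Hif1a at 157 ± 40.2 CPM and Arnt at 90.8 ± 15.4 CPM. Egln1 and Hif1a did not differ beyond their spread, and the other neighbours of this upper part had overlapping ranges as well. Within single libraries, however, Bnip3 was above Egln1 throughout, and Hif1a was above Arnt except in library 10 (122 and 126 CPM). Egln3 averaged 33.7 ± 23.2 CPM and Vegfa 12.9 ± 8.44 CPM. Vhl (7.17 ± 4.96 CPM), Ndrg1 (4.92 ± 3.70 CPM), Epas1 (4.72 ± 7.04 CPM) and Adm (0.717 ± 1.21 CPM) were the lowest, and each of these had no count in at least 1 library. In these bulk samples, fewer cells of a type and less RNA per cell cannot be told apart.

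**Figure D1:**
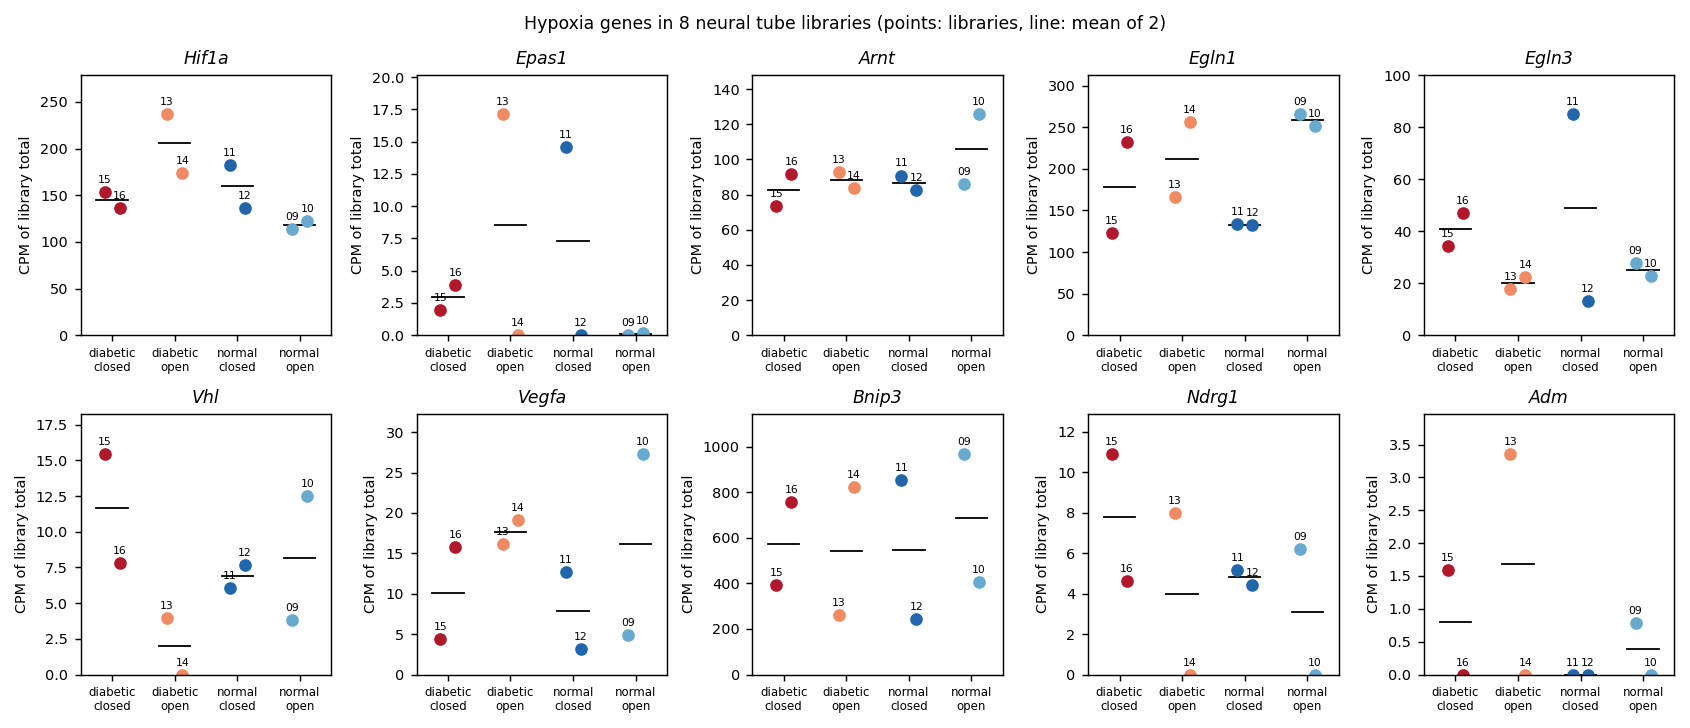
Level of each gene (CPM of the library total, vertical axis from 0) in the 4 groups, with 1 numbered point per library and a line at the mean of 2. Bnip3 ranges from 244 to 969 CPM with both a high and a low library in every group, while Arnt stays between 73.4 and 126 CPM.

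Among the factor subunits, Hif1a was the dominant alpha subunit transcript. It stood at 154 and 136 CPM in diabetic closed, 237 and 174 CPM in diabetic open, 183 and 136 CPM in normal closed and 113 and 122 CPM in normal open libraries. The highest pair was thus open tissue of diabetic dams and the lowest was open tissue of normal dams. Over both regions Hif1a averaged 175 ± 43.9 CPM in libraries of diabetic dams, against 139 ± 30.9 CPM in those of normal dams (SD, n = 4 per dam), and the groups overlapped. The log2 fold change was 0.32 (SE 0.25, 95% interval -0.23 to 0.86), with an edgeR quasi-likelihood adjusted p of 0.999. None of the 10 genes was called in this comparison, and edgeR called 0% of the 11779 genes tested. At an unadjusted p below 0.05 stood 0 of the 10 genes, beside 4.55% of all genes.

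Within open tissue the Hif1a values of diabetic dams lay above those of normal dams without overlap, with a log2 fold change of 0.79 (SE 0.30, 95% interval 0.12 to 1.46). The unadjusted edgeR p was 0.0250 and the adjusted p was 0.651. Values that were higher without overlap were found for 17.4% of all genes tested here, and 7.22% had an unadjusted p below 0.05. Within closed tissue the difference was -0.16 (SE 0.30, 95% interval -0.82 to 0.51). Between regions, closed was below open tissue in diabetic dams (-0.46, SE 0.30) and above it in normal dams (0.48, SE 0.30), again without overlap in either case. The interaction of dam and region for Hif1a was -0.95 (SE 0.42, 95% interval -1.89 to -0.0042), with an unadjusted edgeR p of 0.0492 and an adjusted p of 1.00, so this contrast did not hold over all genes. An unadjusted p below 0.05 for the interaction was found for 3.74% of genes. Without diabetic open library 13 the difference between dams in open tissue was 0.56 and the interaction -0.71. The marker sums for primitive blood, for endothelium, and for heart and endoderm were also higher without overlap in open tissue of diabetic dams. Those for paraxial mesoderm, surface ectoderm and neural progenitors overlapped there. Primitive blood markers summed to 934 and 1014 CPM with diabetic dams, against 63.8 and 1.41 CPM with normal dams. Endothelial markers summed to 381 and 153 CPM with diabetic dams, against 64.5 and 78.5 CPM with normal dams. Heart and endoderm markers summed to 207 CPM in library 13 but only 24.4 CPM in library 14, against 18.2 and 21.0 CPM with normal dams. Their part in the Hif1a values was not tested.

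Arnt, the shared partner, was the steadiest of the 10 genes. Its values were 73.4 and 91.5 CPM in diabetic closed, 93.0 and 83.8 CPM in diabetic open, 90.8 and 82.5 CPM in normal closed and 86.1 and 126 CPM in normal open libraries. The log2 fold change was -0.18 (95% interval -0.66 to 0.30) for diabetic over normal dams and -0.15 (95% interval -0.63 to 0.33) for closed over open tissue (edgeR adjusted p = 0.999 and 1.00). The standard deviation of its log2 level over the 8 libraries was 0.22, lower than that of most genes of like level, whose median was 0.38.

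Epas1, known for its expression in endothelium, had counts in 5 of 8 libraries, mostly at low level. It had 10 and 28 counts in diabetic closed, 285 and 0 in diabetic open, 82 and 0 in normal closed and 0 and 1 in normal open libraries, or at most 17.1 CPM. Both high libraries had a partner of the same group with no count. The fold changes carried wide intervals, with a log2 value of 2.20 (95% interval -5.51 to 9.91) for diabetic over normal dams and 2.02 (95% interval -5.72 to 9.75) for closed over open tissue. The summed level of the 15 endothelial marker genes was 381 CPM in diabetic open library 13, where Epas1 was highest, and 48.8 CPM in normal closed library 11, where it was next. Over the dams that sum ran from 88.5 to 381 CPM with diabetic and from 40.6 to 78.5 CPM with normal dams, the marker Erg being at 0 in all libraries, and its part in the Epas1 values was not tested.

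Egln1, the main oxygen sensor among the prolyl hydroxylases, had a lower mean in closed tissue, short of the threshold. It stood at 123 and 233 CPM in diabetic closed, 166 and 257 CPM in diabetic open, 134 and 132 CPM in normal closed and 266 and 251 CPM in normal open libraries. In normal dams the closed pair was below the open pair by a wide margin, whereas in diabetic dams the values were interleaved. Closed libraries averaged 155 ± 51.7 CPM, against 235 ± 46.1 CPM for open ones (SD, n = 4 per region). The log2 fold change was -0.56 (SE 0.26, 95% interval -1.14 to 0.012), with an unadjusted edgeR p of 0.0541 and an adjusted p of 1.00. None of the 10 genes was called between regions, where edgeR again called 0% of genes, and 0 of the 10 had an unadjusted p below 0.05, beside 3.32% of all genes. Within normal dams the log2 fold change was -0.91 (SE 0.36, 95% interval -1.71 to -0.12), with an unadjusted edgeR p of 0.0281 and an adjusted p of 1.00. It was the 1 gene of the 10 with a p below 0.05 there, beside 3.4% of all genes, and lower values without overlap occurred for 13.6%. Between dams the Egln1 difference was 0.05 (95% interval -0.52 to 0.62).

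Egln3, a hydroxylase that HIF itself induces, had its higher mean in closed tissue, also short of the threshold. Its values were 34.3 and 47.0 CPM in diabetic closed, 17.8 and 22.3 CPM in diabetic open, 84.9 and 13.03 CPM in normal closed and 27.6 and 22.8 CPM in normal open libraries. The closed libraries included both the highest and the lowest value of the 8. Closed libraries averaged 44.8 ± 30.2 CPM, against 22.6 ± 4.04 CPM for open ones (SD, n = 4 per region). This is a log2 fold change of 1.03 (SE 0.50, 95% interval -0.07 to 2.13), with an unadjusted edgeR p of 0.0644 and an adjusted p of 1.00. Without normal closed library 11 it was 0.36. Between dams it was -0.32 (95% interval -1.41 to 0.78).

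Vhl, the substrate receptor of the ligase, was counted at low depth. It stood at 15.5 and 7.81 CPM in diabetic closed, 3.96 and 0 CPM in diabetic open, 6.05 and 7.70 CPM in normal closed and 3.85 and 12.5 CPM in normal open libraries. The open libraries of diabetic dams held its lowest value and their closed libraries its highest. Its log2 fold change was -0.63 (95% interval -3.62 to 2.36) for diabetic over normal dams and 1.20 (95% interval -1.81 to 4.20) for closed over open tissue.

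Whether the 2 libraries of a group lay apart from the 2 of another was counted for all 10 genes. In open tissue, diabetic lay above normal dams for 1 gene, Hif1a, and below for 1, Egln3, beside 17.4% and 15.1% of all genes. In closed tissue, diabetic lay above normal dams for Vhl and below for 0 genes, beside 18.7% and 12.5%. In diabetic dams, closed lay above open tissue for Egln3 and Vhl and below it for Hif1a and Vegfa, beside 18.5% and 15.3%. In normal dams, closed lay above open tissue for Hif1a and below it for Egln1, beside 14.9% and 13.6%. With all 4 libraries on each side, 0 of the 10 genes lay apart between dams, beside 2.48% higher and 1.15% lower of all genes, and 0 between regions, beside 1.68% higher and 1.07% lower. These counts are close to what the shares of all genes would give for 10 genes.

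Other tools made no call among the 10 genes either, though DESeq2 gave Adm no adjusted p in 4 of the 7 comparisons. DESeq2 called 0.314% of genes between dams, 0.0764% between regions, 1.91% between dams in open tissue and 0.017% in closed tissue, 0.472% between regions in diabetic and 0.304% in normal dams, and 0.207% in the interaction. Limma-voom called 0.00849% of genes between dams in open tissue, 0.00849% between regions in diabetic dams, 0.00849% in the interaction and 0% in the other comparisons. An unadjusted edgeR p below 0.05 was found for 0 of the 10 genes between dams in closed tissue, beside 1.17% of all genes, and for 0 between regions in diabetic dams, beside 2.78%.

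**Figure D2:**
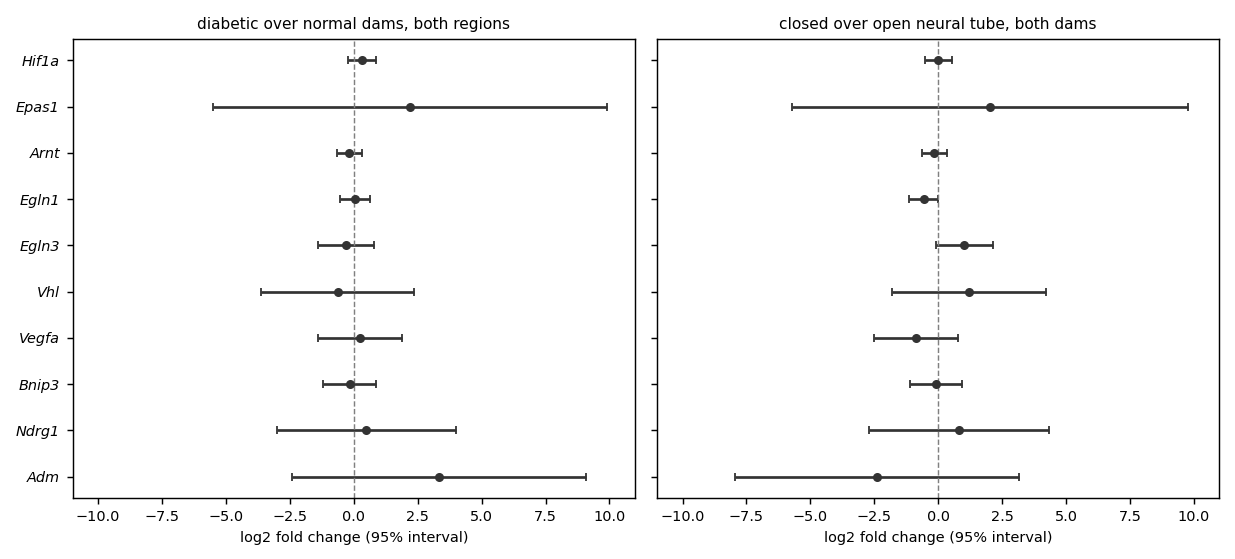
Log2 fold change (horizontal axis) of each gene with its 95% interval, for diabetic over normal dams and for closed over open neural tube over all 8 libraries. All 20 intervals include 0; those of Hif1a, Arnt and Egln1 are narrow, while that of Epas1 between dams spans -5.51 to 9.91.

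Of the secreted targets, Vegfa, the principal angiogenic ligand, was detected in every library. It stood at 4.36 and 15.8 CPM in diabetic closed, 16.2 and 19.1 CPM in diabetic open, 12.6 and 3.11 CPM in normal closed and 4.94 and 27.3 CPM in normal open libraries. The libraries of normal open tissue were the most unlike of the 4 pairs. For Vegfa the log2 fold change was 0.24 (95% interval -1.41 to 1.89) for diabetic over normal dams and -0.86 (95% interval -2.52 to 0.79) for closed over open tissue. Adm, a vasodilator peptide, had 8 and 0 counts in diabetic closed, 56 and 0 in diabetic open, 0 and 0 in normal closed and 8 and 0 in normal open libraries. It passed the filter through libraries 13 and 15 of diabetic dams, so that its positive difference between dams (log2 value 3.34, 95% interval -2.43 to 9.10) is tied to that selection.

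Ndrg1, a stress-responsive gene induced by hypoxia in many cell types, stood at 10.9 and 4.60 CPM in diabetic closed, 7.99 and 0 CPM in diabetic open, 5.16 and 4.44 CPM in normal closed and 6.22 and 0 CPM in normal open libraries. One open library of each dam had no count although its partner had 133 or 63. Such pairs were found among other genes of the open groups too. Of 9490 genes with at least 50 counts in library 13, 11.9% had no count in library 14, and 3.23% the other way round. Of 7939 such genes in library 09, 6.44% had none in library 10, and 3.12% the other way round. The larger share each time starts from the deeper library, and in the closed groups it was at most 1.22%.

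Bnip3, the most abundant of the targets, varied more between libraries than most genes of like abundance. It stood at 393 and 756 CPM in diabetic closed, 259 and 824 CPM in diabetic open, 852 and 244 CPM in normal closed and 969 and 405 CPM in normal open libraries. Every group thus held a high and a low library. Bnip3 averaged 558 ± 275 CPM in libraries of diabetic dams, against 617 ± 348 CPM in those of normal dams (SD, n = 4 per dam). The log2 fold change was -0.16 (95% interval -1.19 to 0.87) between dams and -0.09 (95% interval -1.12 to 0.94) for closed over open tissue. The standard deviation of its log2 level over the 8 libraries was 0.80, against a median of 0.25 among the 499 genes nearest to it in level, of which 94.8% varied less.

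This variation lay within the groups. The ratio of the libraries of a group was 1.93 for 16 over 15, 3.18 for 14 over 13, 3.49 for 11 over 12 and 2.40 for 09 over 10. Egln1 and Egln3 had the same library on top in all 4 groups, with ratios of 1.01 to 1.89 for Egln1 and 1.21 to 6.52 for Egln3, and 2 of the other 9 genes thus shared the order of Bnip3. The same order was found in 5.44% of the 11778 other genes tested. Hif1a had library 15 above 16, 13 above 14 and 10 above 09, and it shared the order of Bnip3 only in normal closed tissue. This way of comparing libraries was chosen after the values were seen.

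Of the other HIF target genes outside glycolysis, 9 of 28 tested (32.1%) shared the order, beside the 5.44% of all genes: Car12, Ankrd37, Kdm3a, Bnip3l, Tfrc, Vldlr, Igfbp3, Fam162a and Ak4. Some of these orders rest on small differences or few counts. Tfrc was at 171 and 164 CPM in libraries 11 and 12. Fam162a had 17 and 0 counts in libraries 14 and 13, and 13 and 1 in libraries 09 and 10. Bnip3l, the paralogue of Bnip3 in mitophagy, stood at 1230 and 1377 CPM in diabetic closed, 866 and 1593 CPM in diabetic open, 1570 and 1019 CPM in normal closed and 1575 and 992 CPM in normal open libraries. Ankrd37, a small HIF-induced ankyrin protein, stood at 13.5 and 30.6 CPM in diabetic closed, 3.90 and 26.7 CPM in diabetic open, 22.6 and 8.29 CPM in normal closed and 19.5 and 13.4 CPM in normal open libraries. Among glycolytic targets the order was shared by Pfkp, Ldha and Pfkfb3, 3 of 17 (17.6%). Ldha, which makes lactate, ran from 6085 CPM in library 13 to 15414 CPM in library 16. Of the 20 regulators of HIF stability and partners, 0 shared the order, as did 0 of 11 VEGF and adrenomedullin genes, and of 5 paralogues only Bnip3l did. Without the diabetic open pair, whose library 13 stood apart, the order over the remaining 3 groups was shared by 10 of these 28 targets (35.7%), 3 of 17 glycolytic targets (17.6%), 2 of the other 9 genes of the set (22.2%), 0 of 20 regulators and 1 of 11 VEGF and adrenomedullin genes (9.09%), beside 12% of all genes.

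Several other quantities were set beside this order. Library depth shared it in 2 of 4 groups and Sox2 in 3. The summed level of 11 primitive blood markers shared it in all 4 groups. The sum was 5.36 CPM in library 15 and 213 CPM in library 16, 934 CPM in 13 and 1014 CPM in 14. It was 1.78 CPM in 11 and 0.592 CPM in 12, and 63.8 CPM in 09 and 1.41 CPM in 10. The gene Hba-x made up most of the high sums, with 891 CPM in library 13 and 994 CPM in library 14. In normal closed libraries 11 and 12 Hba-x had 2 counts each. There 3 counts were 0.534 and 0.444 CPM, so the order of the sum rests on few counts. Hbb-y, Hba-a2 and Nfe2 of that list were at 0 in all libraries. The neural progenitor and endothelial sums shared the order in 2 groups each, and the sums for paraxial mesoderm, heart and endoderm, and surface ectoderm in 1 group each. Both normal libraries with low Bnip3 (10 and 12) were those with Xist, while in diabetic dams no library had it above 2.98 CPM. Ddx3y was at 0.882 and 0.444 CPM in libraries 10 and 12 and shared the order of Bnip3 in 3 groups. The part of these in the order of Bnip3 was not tested.

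**Figure D3:**
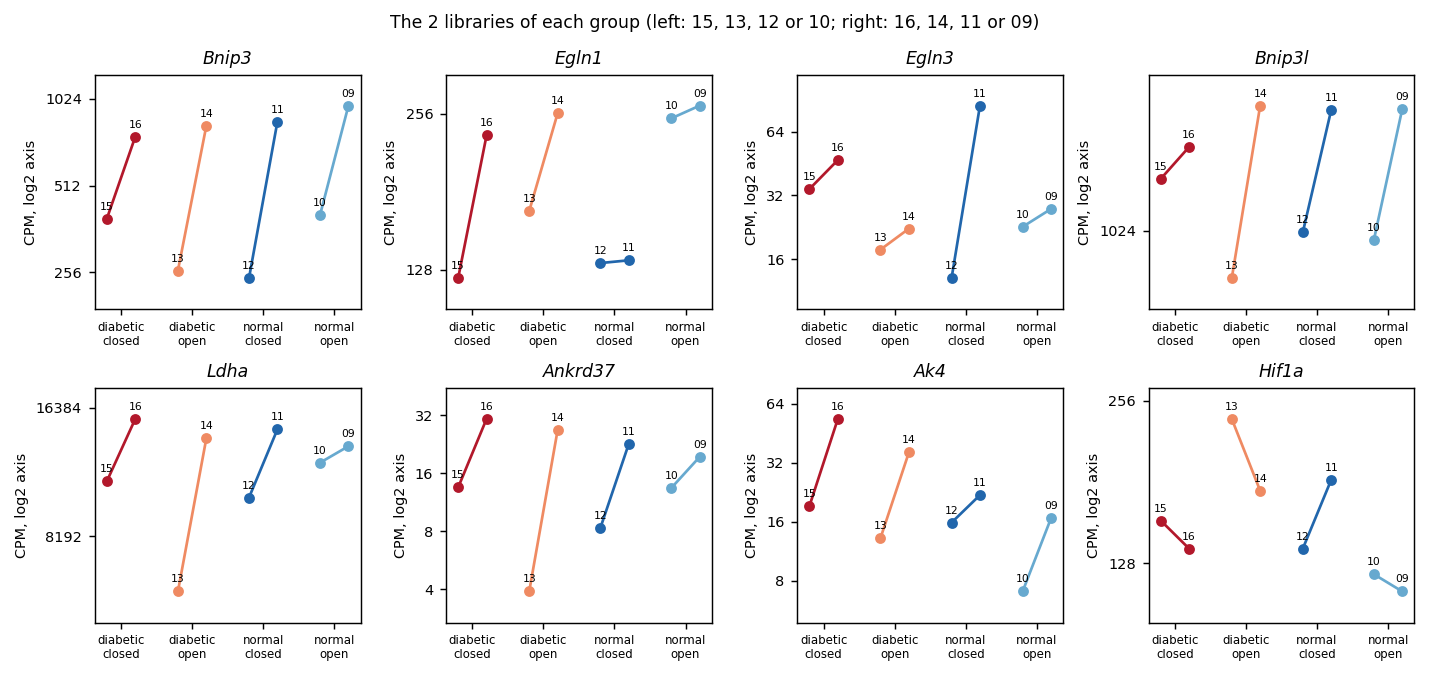
Level (CPM, log2 axis) in the 2 libraries of each group for Bnip3, Egln1, Egln3, 4 further HIF targets and Hif1a, with the library that is lower in Bnip3 on the left of each pair. All genes shown except Hif1a were chosen because they share the order of Bnip3, so their lines slope upward in all 4 groups by that choice. Of the targets tested, 9 of 28 outside glycolysis and 3 of 17 glycolytic ones shared it. The line of Hif1a slopes upward only in normal closed tissue (136 CPM in library 12 and 183 CPM in library 11).

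Since Bnip3, Egln1 and Egln3 had the same library on top in every group, the RefSeq promoter windows of these genes (GRCm38.p6, from 250 bases before to 50 after the start) are shown, with each ACGTG or GCGTG match on either strand in capitals. The counts themselves were made on mm9.
Bnip3, chr7:138909457-138909756, minus strand: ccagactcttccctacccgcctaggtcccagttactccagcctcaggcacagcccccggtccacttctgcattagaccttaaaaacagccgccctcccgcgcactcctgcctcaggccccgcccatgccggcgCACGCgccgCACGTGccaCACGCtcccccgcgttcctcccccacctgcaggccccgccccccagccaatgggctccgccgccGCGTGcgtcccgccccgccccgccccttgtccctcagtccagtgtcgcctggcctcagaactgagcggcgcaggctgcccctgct
Egln1, chr8:124949205-124949504, minus strand: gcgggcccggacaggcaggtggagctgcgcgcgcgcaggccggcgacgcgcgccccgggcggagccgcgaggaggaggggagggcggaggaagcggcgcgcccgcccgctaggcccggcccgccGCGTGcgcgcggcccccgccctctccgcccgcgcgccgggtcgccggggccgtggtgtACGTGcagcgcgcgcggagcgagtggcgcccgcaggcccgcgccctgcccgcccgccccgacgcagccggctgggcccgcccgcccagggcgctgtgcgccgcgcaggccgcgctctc
Egln3, chr12:54203825-54204124, minus strand: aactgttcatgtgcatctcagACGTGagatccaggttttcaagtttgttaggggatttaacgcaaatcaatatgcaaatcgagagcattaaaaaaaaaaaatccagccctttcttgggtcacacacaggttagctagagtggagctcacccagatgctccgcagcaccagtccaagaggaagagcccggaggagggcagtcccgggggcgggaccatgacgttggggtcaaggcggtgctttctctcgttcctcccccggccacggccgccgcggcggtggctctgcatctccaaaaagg
Bnip3 held 5 matches, of which an overlapping pair forms the palindrome CACGTG and was counted once on each strand. Egln1 held 2 matches and Egln3 held 1. Among genes that did not share the order, Hif1a held 3 matches, Adm 2, Arnt 1, Vhl 0, and Vegfa 2 in 1 window and 0 in the other. Windows were at hand for 8 of the 10 genes, Epas1 and Ndrg1 being the others, and 7 of the 8 had at least 1 match in a window. Of all 32851 windows, 43.8% held the motif and 1.66% held 5 or more matches. A match is a string of letters and was not tested for binding.

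The wider pathway was read from lists of genes, described by counts and medians beside all genes tested, whose median log2 fold change was 0.04 for diabetic over normal dams and 0.07 for closed over open tissue. Of 20 regulators of HIF stability and partners, 0 passed the edgeR test in either direction in either comparison, with medians of 0.06 and -0.01. Hsp90aa1, the inducible chaperone that folds Hif1a, averaged 385 ± 66.4 CPM in libraries of diabetic dams, against 260 ± 39.6 CPM in those of normal dams (log2 value 0.55, SE 0.20, edgeR adjusted p = 0.999). Hif3a, whose product can restrain the other alpha subunits, ranged over 0.992 to 4.42 CPM in libraries of diabetic dams, against 7.11 to 12.5 CPM in those of normal dams, a log2 difference of -2.05 (SE 0.97, edgeR adjusted p = 0.999). The Hif3a groups did not overlap, as was the case in the lower direction for 1.15% of all genes. DESeq2 called 1 of these regulators between dams in open tissue, Os9, a lectin of the endoplasmic reticulum, at 8.05 and 13.8 CPM with diabetic dams, against 0 and 0.176 CPM with normal dams (DESeq2 adjusted p = 0.0202, edgeR adjusted p = 0.631). The most abundant listed partners, Gnb2l1 and Hsp90ab1, had log2 differences between dams of 0.12 and 0.17. Between regions the smallest unadjusted p of this list belonged to Ube2s, at 429 ± 45.9 CPM in closed tissue, against 360 ± 58.1 CPM in open tissue.

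Of the 35 other HIF targets outside glycolysis, 28 were tested and 0 passed in either comparison, with medians of -0.06 between dams and 0.08 between regions. The most abundant were Bnip3l and Tfrc, the transferrin receptor, which averaged 119 ± 45.3 CPM in libraries of diabetic dams, against 182 ± 37.6 CPM in those of normal dams. Kdm3a, a histone demethylase, averaged 92.0 ± 26.3 CPM in closed tissue, against 54.8 ± 14.7 CPM in open tissue (log2 value 0.79, SE 0.31, edgeR adjusted p = 1.00). Pdgfb, a vascular growth factor, had counts only in diabetic libraries 13 (6.60 CPM) and 16 (2.23 CPM). Tgfb3, a growth factor, averaged 4.58 ± 2.27 CPM in closed tissue, against 0.686 ± 1.37 CPM in open tissue. Epo and Selenbp1 had no count in any library.

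Of 19 glycolytic targets, 17 were tested and 0 passed, with medians of -0.33 between dams and 0.09 between regions. Slc16a3, a lactate exporter, averaged 233 ± 50.3 CPM in libraries of diabetic dams, against 81.8 ± 51.1 CPM in those of normal dams (log2 value 1.52, SE 0.44). Its 4 libraries of diabetic dams (185 to 303 CPM) lay above all 4 of normal dams (at most 132 CPM), as was the case for 2.48% of all genes. The unadjusted edgeR p was 0.00585, the adjusted p was 0.999, and the DESeq2 adjusted p was 0.110. The endothelial sum did not overlap between dams either (88.5 to 381 CPM in diabetic, 40.6 to 78.5 CPM in normal). DESeq2 called the markers Tek (endothelium), Hba-x (blood), Pdgfra (mesoderm), Gata4 and Gata6 (heart and endoderm) in the same direction. The other listed markers were not called, and 0.314% of all genes were. Of the endothelial markers tested, Pecam1 and Emcn alone went the other way (log2 values -0.42 and -0.80). With normal dams Esam, Plvap, Cldn5 and Tek averaged 0, 0.178, 0.197 and 0.679 CPM, and Cdh5, Tie1 and Sox17 averaged 1.01, 0.963 and 0.741 CPM. Such markers needed libraries of diabetic dams to pass the filter on low counts, so their positive direction is tied to that selection. Gata4 was at 87.7 CPM in library 13 and at most 4.36 CPM elsewhere. With normal dams Gata4 and Gata6 averaged 0.0688 and 0.242 CPM, and Hba-x exceeded 1.06 CPM only in library 09 (61.6 CPM). Gata4, Gata6 and Hba-x thus also needed diabetic libraries to pass the filter, and their direction is tied to that selection. The part of these markers in the Slc16a3 values was not tested. Pkm2, a pyruvate kinase, averaged 571 ± 178 CPM in libraries of diabetic dams, against 391 ± 101 CPM in those of normal dams (log2 value 0.54, SE 0.23). Between regions, the neuronal glucose transporter Slc2a3 averaged 91.9 ± 27.8 CPM in closed tissue, against 53.6 ± 31.2 CPM in open tissue. Tpi1, a triose phosphate isomerase, averaged 2186 ± 162 CPM in closed tissue, against 2947 ± 887 CPM in open tissue. The most abundant of the list were Ldha at 12067 CPM and Pgam1 at 3278 CPM over all libraries.

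The partners of the secreted targets were mostly low. Of 13 ligands and receptors of the VEGF and adrenomedullin systems in the table, 11 were tested and 0 passed, with medians of 0.63 between dams and -0.41 between regions. Kdr and Flt1, the main Vegfa receptors, had 1 and 5 counts over all libraries, although their predicted tags occurred in the transcripts of 0 other annotated genes. Nrp1, a co-receptor of Vegfa, ranged over 43.2 to 247 CPM in libraries of diabetic dams, against 6.88 to 38.2 CPM in those of normal dams (log2 value 1.70, SE 0.68, edgeR adjusted p = 0.999), and its highest value was in library 13. Calcrl, the adrenomedullin receptor, was likewise highest in library 13 (41.4 CPM) and at most 3.97 CPM elsewhere. The endothelial sum, highest in the same library, is given above, and its part in these values was not tested. Vegfb averaged 53.8 ± 24.1 CPM in libraries of diabetic dams, against 36.9 ± 36.8 CPM in those of normal dams.

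Of the paralogues of Ndrg1 and Bnip3, 5 were tested and 0 passed, with medians of -0.05 between dams and 0.09 between regions. Bnip2 averaged 137 ± 34.9 CPM in libraries of diabetic dams, against 106 ± 31.7 CPM in those of normal dams. For Bnip1 the averages were 33.7 ± 4.26 CPM (diabetic) and 34.5 ± 22.6 CPM (normal), and for Ndrg3 10.03 ± 1.58 CPM (diabetic) and 11.5 ± 8.19 CPM (normal).

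**Figure D4:**
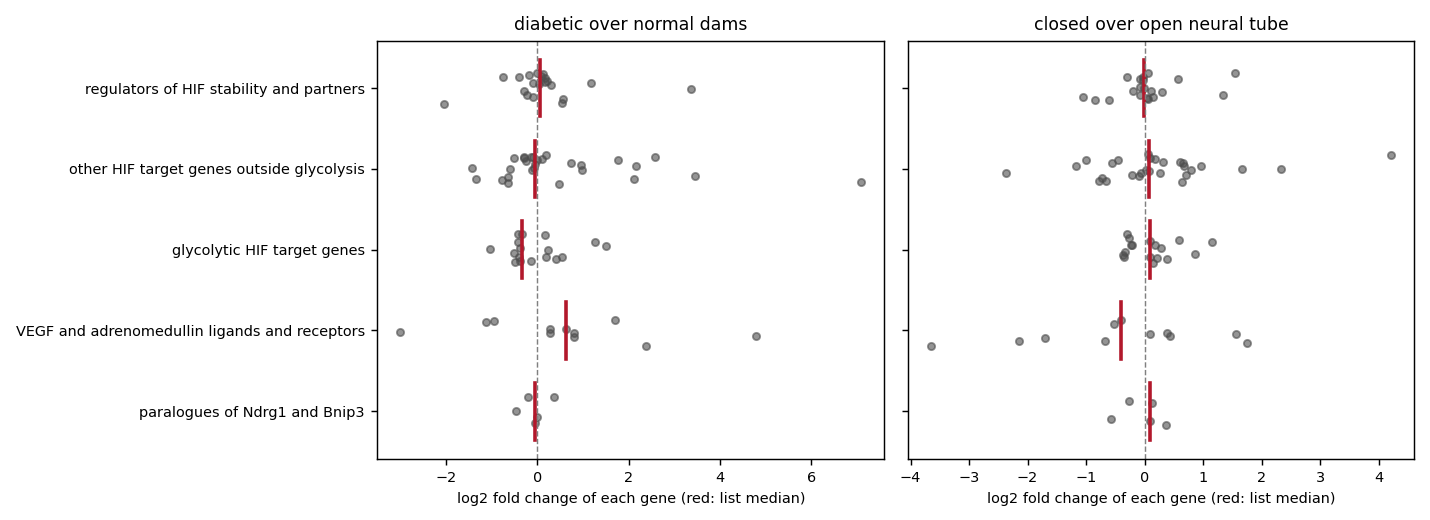
Log2 fold change (horizontal axes, which differ in range) of each tested gene in 5 pathway lists, for diabetic over normal dams and closed over open neural tube; red bars are list medians. The medians lie between -0.33 and 0.63 between dams and between -0.41 and 0.09 between regions.

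Genes with the profile most like each of the 10 were sought among genes with a mean of at least 50 counts, by the root mean square difference of log2 levels centred over the 8 libraries. Closest to Hif1a were Arpc5 and Selk (0.16 each, on a standard deviation of Hif1a of 0.32), to Arnt LOC674321 and Med9 (0.07 and 0.09), and to Egln1 Mlf1ip and Bfar (0.19 and 0.20). Closest to Bnip3 were Polr3e and Ect2 (0.28 and 0.37), to Egln3 Ubl3 and Scfd1 (0.29 and 0.33), and to Vegfa Nqo2 and Gm3002 (0.48 each). The low genes Epas1, Vhl, Ndrg1 and Adm were closest to Etaa1 and Fli1, to Sulf1 and Acadl, to Spint2 and Thap2, and to Msrb3 and Bambi, at 0.25 to 0.83. Among the 10 genes themselves, the smallest differences were those of Arnt with Egln1 (0.40) and Arnt with Hif1a (0.42). Of all genes considered, 25.1% and 28.5% lay closer to Arnt. Arnt itself had a standard deviation of only 0.21, and its difference from Hif1a exceeded the 0.32 of Hif1a. These small differences thus do not mean that the profiles are alike. Bnip3 and Egln3 lay at 0.64, beside a standard deviation of Bnip3 itself of 0.75, and 5.48% of genes lay closer to Bnip3. With so many genes and 8 libraries, close profiles are found for any gene, and these are given as a description.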

How the data were processed

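The deposited files, 1 per library, give raw counts of tags by gene symbol. Per the labels' protocols, barcoded SOLiD SAGE libraries were made from 7 ng of Trizol-extracted RNA. The submitters' processing notes name mm9 as build. The sources used here give no aligner, counter, annotation, strand setting or rule for tags that match several genes. Per-library totals and the precision they give are in the text.

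The tools were edgeR 4.0.16, DESeq2 1.42.0 and limma 3.58.1 under R 4.3.3. The filter on low counts was filterByExpr with the 4 groups (a count of at least 10 and a total of at least 15), followed by TMM scaling. Genes were tested by edgeR's quasi-likelihood method with Benjamini-Hochberg adjustment over all 11779 genes and a threshold of 0.05. Dam and region were tested in an additive model, and simple differences and the interaction in a model of the 4 groups. Standard errors are those implied by the F statistic, and 95% intervals use its degrees of freedom. Levels are CPM of the library total. The tests were tried on simulated data first.

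The genes and lists were chosen with earlier results of these data known. The text names all 10 genes, and from each list the members past the threshold, the 2 most abundant, and the 2 with the smallest p in each additive comparison. It also names the 2 genes nearest in profile. Genes sharing the order of Bnip3, genes at 0 and the marker genes named were chosen after their values were seen. Alternatives were DESeq2, limma-voom, library totals without TMM, no filter, the model of 4 groups, and leaving out each library.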

Additional observations from a re-analysis of the deposited data

Results flagged for a closer look

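Among 40 sets of 4 libraries examined (each of the 10 genes in diabetic, normal, closed and open libraries), 7 had a highest or lowest library whose gap to the next exceeded 0.829 of the whole range, Dixon's critical value for 4. For normally distributed values chance picks out about 1 in 20 sets, and the sets share libraries. The Epas1 and Adm sets picked out held 1 higher value beside values at or near 0, so that share does not apply to them. Epas1 was picked out in normal closed library 11 (14.6 CPM, next among normal dams 0.176) and in diabetic open library 13 (17.1 CPM, next among open tissue 0.176). Egln1 was high in diabetic closed library 16 among closed tissue (233 CPM, next 134) and low in diabetic open library 13 among open tissue (166 CPM, next 251). Ndrg1 was high in diabetic closed library 15 (10.9 CPM, next among closed tissue 5.16). Adm had counts in a single library among normal dams, normal open library 09 (0.790 CPM), and in a single one among closed tissue, diabetic closed library 15 (1.59 CPM).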

How the results depend on the processing

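None of the 10 genes tested was called in any of the 7 comparisons under DESeq2, limma-voom, library totals without TMM, no filter, the model of 4 groups (run for the additive comparisons) or with any library left out. DESeq2 gave Adm no adjusted p in 4 of the 7 comparisons and so tested 9 of the 10 genes there. The count of all genes called, 0 in each comparison by edgeR, did depend on the tool. In the order diabetic over normal dams, closed over open tissue, diabetic over normal in open and then in closed tissue, closed over open in diabetic and then in normal dams, and the interaction, DESeq2 called 37, 9, 199, 2, 47, 33 and 22 genes, and edgeR without the filter called 89, 29, 138, 11, 41, 22 and 23. limma-voom called 1 in open tissue between dams, 1 between regions of diabetic dams and 1 in the interaction. With 1 library left out, the counts ranged from 0 to 12, from 0 to 5 and from 0 to 4 in these 3 comparisons, the upper values without library 14, and from 0 to 1 in closed tissue between dams (1 without library 12). A group left with 1 library is assumed to vary like the others. The cause was not tested.

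Signs of several differences turned, large ones of low genes included. Between regions, Hif1a was 0.01 and became -0.017 with DESeq2, -0.066 with limma-voom and -0.035 without TMM, and ranged from -0.17 to 0.19 with libraries left out. Between dams, Egln1 became -0.089 with limma-voom and ranged from -0.23 to 0.24. Leave-one-out ranges that crossed 0 between dams were -1.53 to 6.77 for Epas1 (2.20 with all libraries), -0.65 to 0.36 for Egln3, -1.11 to 0.090 for Vhl, -0.23 to 0.88 for Vegfa, -0.50 to 0.21 for Bnip3 and -0.81 to 2.01 for Ndrg1, and between regions -1.68 to 6.58 for Epas1 and -0.46 to 0.28 for Bnip3. Between regions, the difference kept its sign but became 0.36 for Egln3 without library 11, -0.24 for Vegfa without library 10 and 0.47 for Vhl without library 14. Hif1a in open tissue stayed between 0.56 and 0.99 between dams, its interaction between -1.15 and -0.71, and Egln1 in normal dams between -0.99 and -0.83. TMM scaling moved 1 of 40 group means by more than its SD, Egln1 in normal closed tissue, to 136 from 133 CPM.

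No paired analysis was possible because no library number occurs in more than 1 group. The labels do not say if a single embryo supplied both regions, and the tests between regions treat them as separate. Epas1, Vhl and Ndrg1 had libraries of 1 group as far apart as 285 and 0, 66 and 0, and 133 and 0 counts, so their wide intervals reflect the spread between libraries beyond counting error. Adm had at most 56 counts.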
